A study of Mus musculus with 18 samples.

Results

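The genes described here are 9 members of the unfolded protein response (UPR) of the mouse: Eif2ak3, Atf4, Atf5, Ddit3, Xbp1, Trib3, Chac1, Herpud1 and Hspa5. They were chosen by gene symbol, 9 of the 23359 symbols in a table of expression values, a rule that uses no measured value, although earlier results of these data were known when the genes were picked. RNA-seq had been performed on sorted cells of the main olfactory epithelium (MOE), in which the olfactory sensory neurons (OSNs) lie. The study asked how OSNs that express a trace amine-associated receptor (TAAR) are set apart from those that express an odorant receptor (OR). In the Taar5-ires-Cre;lox-L10-GFP line, 7 libraries came from GFP-positive cells (Taar5+) and 9 from GFP-negative cells (control), from mice of postnatal day 11 to 14. In the Taar6-ires-Cre;lox-ZsGreen line, 1 library came from ZsGreen-positive cells (Taar6+) and 1 from ZsGreen-negative cells, at postnatal day 16 to 17. The strain is C57BL/6 in the labels and a mixed background in the methods, and the methods also give an older age, in weeks, for both lines. Cre follows the receptor's coding sequence on a shared mRNA and its action on the reporter is permanent, so reporter-positive cells are those that expressed that gene at some time, and they include neurons that use other TAARs. Controls carried the same alleles and were sorted as reporter-negative, a gate that does not select for OSNs, so the groups can also differ in their other cells. Nothing in the labels ties a library to an animal, so p-values measure the spread between libraries, which may be partly technical.

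The UPR is the answer of a cell to unfolded protein in the endoplasmic reticulum (ER). Of its sensors, PERK (the product of Eif2ak3) phosphorylates the translation factor eIF2alpha, which slows most protein synthesis and favours the translation of ATF4 and ATF5; IRE1 (Ern1) splices the Xbp1 mRNA; and ATF6 is cut and moves to the nucleus. In OSNs this pathway is known for a part in receptor choice: the first receptor protein made engages PERK, ATF5 protein is translated, and a feedback that involves the demethylase LSD1 (Kdm1a) and adenylyl cyclase 3 (Adcy3) makes the choice stable. The unit here, TPM (transcripts per 1000000), gives each gene's part of a library's transcripts after correction for length, and it measures mRNA only. Phosphorylation, translation and the splicing of Xbp1 are outside these data.

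Sequences of the promoter windows of all 9 members (250 bases before to 50 after the start site, RefSeq, GRCm38.p6) were searched on both strands for the DNA elements through which the pathway is known to act. These were the ER stress response element (ERSE), the shorter ERSE-II, the core of the UPR element bound by XBP1 and ATF6 (TGACGTG) and the C/EBP-ATF response element bound by ATF4 dimers (CARE, TGATGNAA). The ERSE letters stood in 0.119% of all 32851 windows and, among the members, in that of Hspa5. The ERSE-II letters stood in 0.0365% of windows and, among the members, in that of Herpud1. The UPR element core stood in 2.01% of windows, Hspa5 being the member with a match, and the CARE letters stood in 3.97% of windows, those of Chac1, Herpud1 and Trib3 included. No match was found in the windows of Atf4, Atf5 (2 windows), Ddit3, Eif2ak3 or Xbp1, which says only that these letters are not there. Upstream stretches are shown for Hspa5 and Herpud1, which the results set against each other, and for Chac1 as an example of a CARE match alone upstream of the start site, 5′ to 3′, all on the plus strand, with the matches in capitals. In Hspa5 (chr2:34771923-34772053) the first match is the UPR element core and the second the ERSE. Upstream here refers to the RefSeq start site. The GENCODE M21 start of Hspa5, 34771970, lies inside this stretch, before the ERSE. In Herpud1 (chr8:94386307-94386397) the first is CARE, on the minus strand, and the second ERSE-II. In Chac1 (chr2:119351039-119351066) the match is CARE, on the minus strand.
Hspa5: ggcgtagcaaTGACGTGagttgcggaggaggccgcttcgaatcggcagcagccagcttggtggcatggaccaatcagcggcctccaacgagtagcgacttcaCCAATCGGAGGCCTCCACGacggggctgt
Herpud1: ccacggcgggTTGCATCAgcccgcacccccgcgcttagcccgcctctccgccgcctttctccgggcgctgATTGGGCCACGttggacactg
Chac1: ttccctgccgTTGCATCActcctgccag

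Before the values, the libraries themselves. The depth of a library is unknown from TPM, and the number of symbols above 0 ranged from 9784 to 17653 in Taar5+ libraries and from 5891 to 16888 in controls. Control replicate 2 stood apart with 5891 symbols, and in it 639 of 3204 abundant genes (median of at least 50 TPM) were listed at 0, against at most 47 in any other library of this line. Values of 0 are therefore given as listed at 0, and results are also given without this library where it changed them. Markers of mature OSNs were high in every library, Omp, the olfactory marker protein, at 3908 to 20070 TPM in the Taar5 line. Of the 8 mature OSN markers, 6 had a difference above 0 between Taar5+ and control and 2 below, and 1 passed the adjusted threshold: Stoml3, lower in Taar5+ without overlap (means of 5510 and 15101 TPM, log2 difference -1.42, limma adjusted p = 0.0099). Of the 5 immature OSN markers, 2 had a difference above 0 and 3 below (median -0.20), and 0 reached an unadjusted p under 0.05 by limma. Their sum ranged from 1370 to 2443 TPM in Taar5+ libraries and from 760 to 4023 TPM in controls. In bulk samples, fewer cells of a type and less RNA per cell cannot be told apart.

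All 9 members were measured in all 18 libraries and passed the filter on low values (1 TPM or more in 7 or more of the 16 Taar5-line libraries). They made up 2450 to 3872 TPM together in Taar5+ libraries and 2123 to 3186 TPM in controls. In levels, which TPM allow to be compared between genes, Herpud1 and Hspa5 led in both groups and Eif2ak3 was lowest by median. In Taar5+ libraries the medians ran in the order Herpud1, Hspa5, Atf5, Ddit3, Atf4, Xbp1, Trib3, Chac1 and Eif2ak3. In that order the ranges of neighbours did not meet at 2 places, between Atf4 and Xbp1 and between Trib3 and Chac1, and the other neighbours overlapped. In controls the order was Herpud1, Hspa5, Ddit3, Atf4, Atf5, Trib3, Xbp1, Chac1 and Eif2ak3, and every pair of neighbours overlapped.

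The comparison of Taar5+ libraries with controls asked whether mRNAs of the pathway differ between TAAR OSNs and the remaining cells. With limma on log2(TPM + 1) and Benjamini-Hochberg adjustment over 12502 genes, 0 of the 9 members passed an adjusted p under 0.05, where 0.168% of all genes did. An unadjusted p under 0.05 was reached by 1 member, Eif2ak3, against 7.05% of all genes in either direction and 1.67% in the direction of higher in Taar5+. For 0 of the 9 members did every Taar5+ library lie above every control, against 0.104% of all genes. Differences in mean log2(TPM + 1), Taar5+ minus control, were above 0 for 7 members and had a median of 0.17, beside a median of 0.02 over all genes tested.

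**Figure D1:**
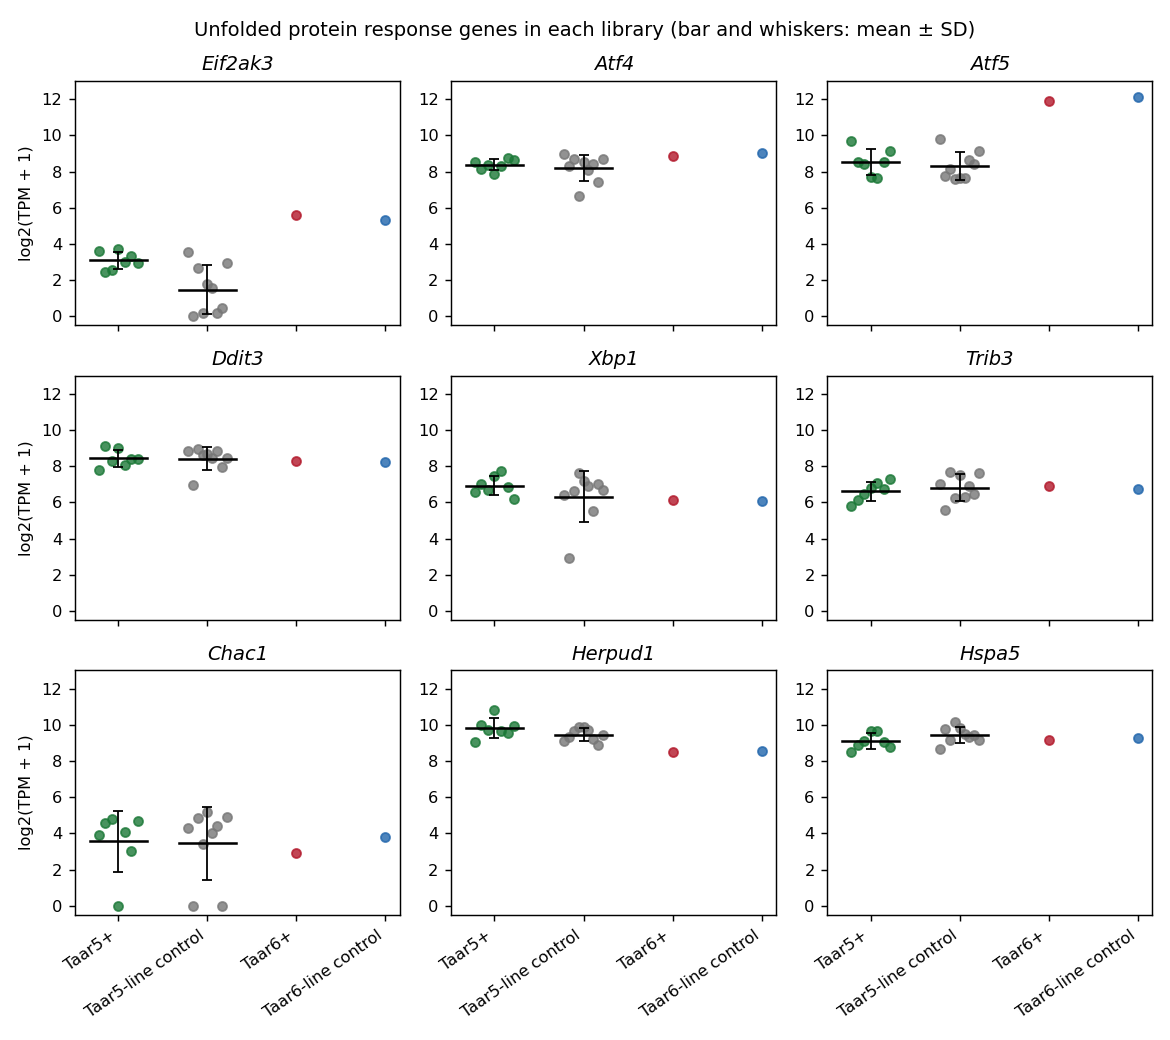
Level of each of the 9 members in each library as log2(TPM + 1), by group; points are libraries, the bar is the mean and the whiskers the SD of groups with more than 1 library. Eif2ak3 is at or near 0 in several controls of the Taar5 line, and Atf5 and Eif2ak3 in both Taar6-line libraries lie above all 16 libraries of the Taar5 line.

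Eif2ak3 (chromosome 6, 70844515 to 70905245, plus strand) encodes PERK, the ER-resident kinase that starts the branch leading to ATF5. In Taar5+ libraries it stood at 11.1, 4.57, 4.86, 12.1, 6.97, 9.15 and 6.87 TPM (replicates 1 to 7). In controls it stood at 10.8, 0, 5.30, 0.138, 2.41, 1.94, 0.117, 0.353 and 6.71 TPM (replicates 1 to 9). Every Taar5+ library thus lay above 6 of the 9 controls, while controls 1, 3 and 9 lay inside the Taar5+ range. The difference was 1.62 ± 0.58 on the log2 scale (SE, 95% confidence interval 0.41 to 2.83, limma adjusted p = 0.40). An exact two-sided permutation test of the same difference over all 11440 ways to assign the libraries gave p = 0.0125, which is not adjusted for other genes. Without control 2 the difference was 1.43 (exact permutation p = 0.0207).

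The level of Eif2ak3 in controls moved with the number of symbols above 0. The 6 controls below the Taar5+ range had 5891 to 15206 symbols above 0, and the other 3 had 15421 to 16888. Across the 9 controls, Pearson's r between log2(TPM + 1) of Eif2ak3 and the log2 number of symbols was 0.76 (exact permutation p = 0.00532, adjusted p = 0.0332 over 18 relations) and Spearman's rho was 0.90 (exact permutation p = 0.00203, adjusted p = 0.0183). Without the 2 libraries farthest from the median number of symbols, r was 0.90. Across the 7 Taar5+ libraries r was -0.24 (exact permutation p = 0.597, adjusted p = 0.767) and rho was -0.14 (exact permutation p = 0.783, adjusted p = 0.939), with r of 0.26 without the 2 farthest. Taar5+ replicate 4 had the highest Eif2ak3 of the line with the lowest number of symbols of its group, 9784. This relation was looked for after the values had been seen, and the part of detection in the difference between groups was not tested. How many genes outside the members moved with the number of symbols was not counted. With weights for the quality of each library (limma arrayWeights), the difference of Eif2ak3 was 0.54 on the log2 scale (limma adjusted p = 0.42).

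**Figure D2:**
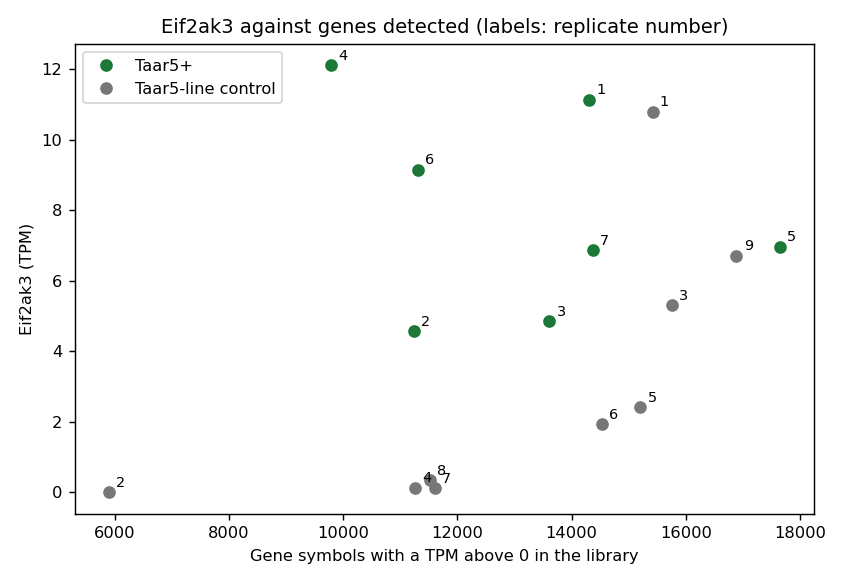
Eif2ak3 in TPM against the number of gene symbols above 0, for 7 Taar5+ libraries and 9 controls, each labelled with its replicate number. Controls with fewer symbols lie near 0 TPM, while Taar5+ libraries with similar numbers lie between 4.57 and 12.1 TPM.

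Of the transcription factors, Atf5 (chromosome 7, 44812256 to 44816658, minus strand) is the one that OSNs are known to translate when PERK is active. Its mRNA stood at 203 TPM at the lowest, 365 at the median and 816 at the highest in Taar5+ libraries, and at 193, 285 and 898 TPM in controls. The ranges coincided nearly whole, and in each group the library with replicate number 1 was the highest. The difference was 0.20 ± 0.35 (SE, log2 scale), and its 95% confidence interval of -0.52 to 0.93 leaves room for a difference in either direction (limma adjusted p = 0.97).

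Atf4 (chromosome 15, 80255184 to 80257541, plus strand) encodes the main effector downstream of phosphorylated eIF2alpha, translated from a transcript that is present without stress. It ranged from 230 to 429 TPM (median 333) in Taar5+ libraries and from 101 to 503 TPM (median 339) in controls. The controls enclosed the whole Taar5+ range, and control 4 was the lowest. The difference of 0.17 (95% confidence interval -0.42 to 0.76, limma adjusted p = 0.97) fell to -0.02 without control 4. The ratio of Atf5 to Atf4 had a median of 1.01 in Taar5+ libraries and 1.19 in controls.

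Ddit3 (chromosome 10, 127290774 to 127296288, plus strand) encodes CHOP, the factor linked to prolonged ER stress. It ranged from 222 to 555 TPM (median 334) in Taar5+ libraries. In controls it ranged from 123 to 486 TPM (median 401), with control 2 at 123 TPM and the next lowest at 249.5 TPM. The log2 difference was 0.02 (95% confidence interval -0.55 to 0.58, limma adjusted p = 0.996) and -0.17 without control 2. An annotated exon of Mars, on the other strand, shares 68 of the 1713 exonic bases of Ddit3, and whether the counting used strand is not stated.

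Xbp1 (chromosome 11, 5520659 to 5525893, plus strand) encodes the factor whose spliced form activates chaperone and degradation genes. It ranged from 73.1 to 209 TPM (median 113) in Taar5+ libraries and from 6.53 to 193 TPM (median 104) in controls. Control 2 held the 6.53 TPM and the next lowest control 44.6 TPM. The log2 difference of 0.60 (95% confidence interval -0.47 to 1.67, limma adjusted p = 0.95) was 0.17 without control 2.

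Trib3 and Chac1 are targets of ATF4 and CHOP. Trib3 (chromosome 2, 152337422 to 152344032, minus strand), a pseudokinase that dampens the response, ranged from 55.6 to 155 TPM (median 106) in Taar5+ libraries and from 46.1 to 208 TPM (median 120) in controls. The ranges overlapped throughout, with a log2 difference of -0.20 (95% confidence interval -0.88 to 0.48, limma adjusted p = 0.97). Chac1 (chromosome 2, 119351229 to 119354381, plus strand), an enzyme that breaks down glutathione, ranged from 0 to 26.6 TPM (median 15.8) in Taar5+ libraries and from 0 to 34.7 TPM (median 18.8) in controls. It was listed at 0 in Taar5+ replicate 4 and in controls 2 and 8, all among the libraries with fewer symbols above 0. The interval of its log2 difference, -1.73 to 1.97, is the widest of the 9 (difference 0.12, limma adjusted p = 0.99). Like Eif2ak3, both genes moved with the number of symbols above 0 across the controls, Trib3 with r = 0.83 and rho = 0.92 (adjusted p of 0.0332 and 0.0183, exact permutation tests) and Chac1 with r = 0.80 and rho = 0.80 (adjusted p of 0.0332 and 0.0557, exact permutation tests). Without the 2 farthest libraries r was 0.64 and 0.68. Without control 2, the adjusted p-values of r and rho from exact permutation tests were 0.0386 and 0.0321 for Eif2ak3, 0.102 and 0.0321 for Trib3, and 0.0932 and 0.103 for Chac1, and Atf4 passed by rho (0.90, adjusted p = 0.0321) but not by r (0.79, adjusted p = 0.0748).

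Herpud1 (chromosome 8, 94386438 to 94395377, plus strand), an ER membrane protein of the degradation machinery, was the most abundant member by median in both groups. It stood at 521, 1007, 841, 1812, 821, 748 and 977 TPM in Taar5+ replicates 1 to 7. In controls 1 to 9 it stood at 550, 635, 818, 942, 936, 851, 596, 466.2 and 683 TPM. Taar5+ replicates 2, 4 and 7 lay above every control and replicate 1 lay below 8 of the 9 controls. The log2 difference was 0.36 (95% confidence interval -0.09 to 0.81, limma adjusted p = 0.86).

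Hspa5 (chromosome 2, 34771970 to 34777547, plus strand) encodes BiP, the ER chaperone that holds the sensors inactive until unfolded protein draws it away. It stood at 353, 468, 552, 818, 812, 532 and 445 TPM in Taar5+ replicates 1 to 7. In controls 1 to 9 it stood at 404, 887, 578, 1127, 899, 730, 640, 680 and 571 TPM. Taar5+ replicate 1 was the lowest library and controls 2, 4 and 5 were the highest, with an overlap between. The log2 difference was -0.35 (95% confidence interval -0.80 to 0.10, limma adjusted p = 0.87).

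**Figure D3:**
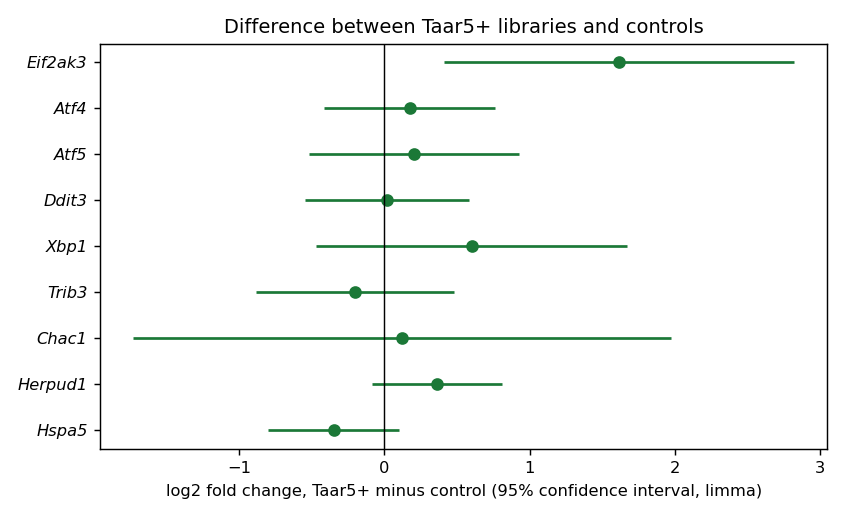
Difference in mean log2(TPM + 1) between 7 Taar5+ libraries and 9 controls for each member (points), with its 95% confidence interval from limma (lines). The interval of Eif2ak3, 0.41 to 2.83, lies above 0, and those of the other 8 members include 0.

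Herpud1 and Hspa5, the 2 members with the highest levels, differed in opposite directions, and their ratio separated the groups more than either gene. The ratio of Herpud1 to Hspa5 in TPM was 1.47, 2.15, 1.52, 2.21, 1.01, 1.41 and 2.197 in Taar5+ replicates 1 to 7. In controls 1 to 9 it was 1.36, 0.716, 1.41, 0.836, 1.04, 1.17, 0.932, 0.686 and 1.20. Herpud1 exceeded Hspa5 in 7 of 7 Taar5+ libraries and in 5 of 9 controls, and 5 Taar5+ libraries lay above the highest control. The mean log2 ratio was higher by 0.71 in Taar5+ (1.64-fold, exact two-sided permutation p = 0.00463, adjusted p = 0.0232 over the 5 ratios examined). Without control 2 the difference was 0.65 (exact permutation p = 0.00824, adjusted p = 0.0412). The tests of the ratios were added after their values had been seen, and they took 1 TPM added to each gene. How often ratios of other gene pairs differ by as much was not counted, so this result cannot be read as particular to these members. In the Taar6 line the ratio was 0.628 in Taar6+ and 0.611 in the control, below every library of the Taar5 line in both.

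Of the other 4 ratios, Hspa5 to Eif2ak3 was lower in Taar5+ with a difference of -1.97 on the log2 scale (exact permutation p = 0.0141, adjusted p = 0.0352), which was -1.74 without control 2 (exact permutation p = 0.0235, adjusted p = 0.0587). The median of this ratio in plain TPM, with nothing added, was 67.6 in Taar5+ libraries and 374 in controls where Eif2ak3 was above 0. Eif2ak3 moved with the number of symbols above 0 across the controls, and the part of detection in this ratio was not tested. Atf5 to Atf4, Ddit3 to Atf4 and Trib3 to Ddit3 differed by 0.03, -0.16 and -0.22 (adjusted p of 0.93, 0.88 and 0.78 from exact permutation tests).

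How the members varied together from library to library was examined as deviations from the group means over the 16 libraries of the Taar5 line. Of the 36 pairs, 10 had a permutation p under 0.05 for Pearson's r and 1 passed adjustment over the pairs, Atf5 with Hspa5. How often pairs of other genes reach such values was not counted, so these counts cannot be read as particular to the members. Libraries high in Atf5 were low in Hspa5: Taar5+ replicate 1 had 816 TPM of Atf5 and 353 of Hspa5, and control 4 had 193 TPM of Atf5 and 1127 of Hspa5. Pearson's r was -0.92 (adjusted permutation p = 0.00036) and Spearman's rho was -0.92 (adjusted permutation p = 0.00108). The permutations over both groups, here and below, took the libraries as independent. Whether libraries with the same replicate number share a preparation was not tested, and if they do, these p-values could be too small. Without the 2 libraries farthest from the median of Atf5, which were the replicates 1 of both groups, r was -0.86. Without control 2, r was -0.91 and rho was -0.91 (adjusted permutation p = 0.00216 for both). In that set of 15 libraries Xbp1 also passed adjustment by Spearman's rho, against Atf5 (-0.77, adjusted permutation p = 0.0192) and with Hspa5 (0.81, adjusted permutation p = 0.0137), but not by Pearson's r (-0.67 and 0.71, adjusted permutation p = 0.0679 for both). With control 2 these r were -0.14 and 0.15. Within the groups, r was -0.97 in Taar5+ libraries (exact permutation p = 0.000397, n = 7) and -0.88 in controls (exact permutation p = 0.00102, n = 9). Spearman's rho was -0.96 (exact permutation p = 0.00278) and -0.90 (exact permutation p = 0.00203). Without the 2 farthest libraries, r was -0.94 and -0.73.

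Atf4, the close relative of Atf5, also ran against Hspa5 (r = -0.63, rho = -0.65, adjusted permutation p of 0.13 and 0.11), as did Herpud1 against Atf5 (r = -0.63, rho = -0.64, adjusted permutation p of 0.13 and 0.11). Hspa5 and Herpud1, whose windows hold the ERSE and ERSE-II letters, rose and fell together from library to library with r = 0.59 and rho = 0.53 (adjusted permutation p of 0.17 and 0.12). These 3 relations did not pass adjustment, and without the 2 farthest libraries their r were -0.63, -0.48 and 0.53. Atf4 with Atf5 gave r = 0.52 and rho = 0.54 (adjusted permutation p of 0.18 and 0.11), and r = 0.43 without the 2 farthest.

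**Figure D4:**
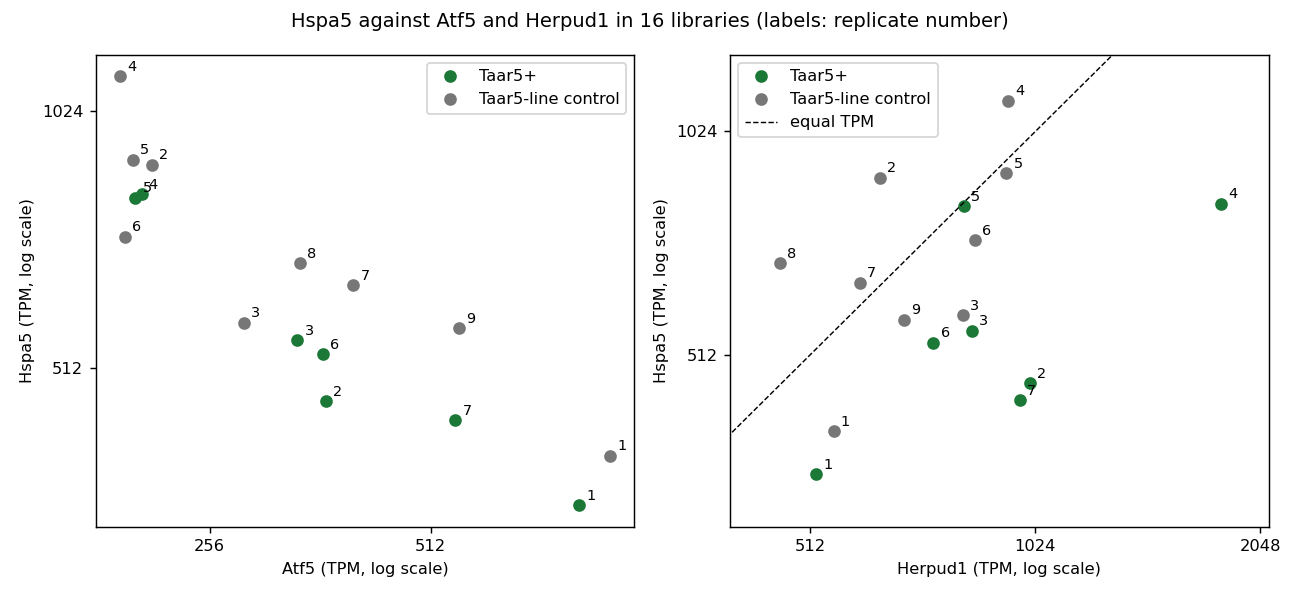
Hspa5 against Atf5 (left) and against Herpud1 (right) in TPM on log axes, for 7 Taar5+ libraries and 9 controls labelled by replicate number; the dashed line marks equal TPM of Herpud1 and Hspa5. On the left the libraries fall along a descending line in both groups, and on the right all 7 Taar5+ libraries lie on the side where Herpud1 exceeds Hspa5.

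Over all 12501 other genes tested, the 5 whose deviations were most like those of Atf5 by Pearson's r over the 16 libraries were Rpl41 (0.93), Tpt1 (0.92), Atp5d (0.91), Khsrp (0.90) and Rpl36a (0.88). Rpl41 and Rpl36a are ribosomal protein genes, and Atp5d encodes a subunit of the mitochondrial ATP synthase. Hspa5 ranked last of the 12501, the gene with the most negative r with Atf5. This ranking is a description, with no test.

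The total of ribosomal protein transcripts moved with the same libraries. The summed TPM of 92 ribosomal protein genes was 26336 in Taar5+ replicate 1 and 29684 in control 1, against 9832 to 15510 in the other Taar5+ libraries and 11165 to 22420 in the other controls. Its r with Atf5 was 0.77 and rho was 0.60 (adjusted permutation p of 0.00564 and 0.0275), and its r with Hspa5 was -0.70 and rho was -0.67 (adjusted permutation p of 0.00786 and 0.0206). Without the 2 libraries farthest from the median of the ribosomal total, r was 0.51 and -0.43. Without control 2, r was 0.88 with Atf5 and -0.80 with Hspa5 (adjusted permutation p of 0.0009 and 0.00135). In that set rho was 0.67 and -0.79 (adjusted permutation p of 0.021 and 0.00612), and r without the 2 farthest was 0.72 and -0.63. A second measure was the Spearman correlation, over 3674 genes, between a library's deviation and the GC content of each gene's transcript. It ranged from -0.28 to 0.27 and gave r of 0.48 with Atf5 and -0.51 with Hspa5 (rho 0.47 and -0.39, adjusted permutation p from 0.0642 to 0.154; r 0.27 and -0.04 without the 2 farthest). The transcripts of Atf5 and Hspa5 hold 61.7% and 45.6% GC. With the ribosomal total regressed out of both genes, r between Atf5 and Hspa5 was -0.84, with the GC measure regressed out it was -0.89, and with both -0.84. These fits used all 16 libraries, control 2 included. The part of technical differences between libraries in the relation of Atf5 and Hspa5 was not tested. Herpud1 moved with both measures (r = -0.69 and -0.77, rho = -0.66 and -0.67, adjusted permutation p from 0.00669 to 0.0206; r -0.56 and -0.56 without the 2 farthest). These measures were chosen after the values had been seen.

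Receptor protein is the known trigger of the pathway in OSNs, so each member was set against the summed TPM of OR and Taar genes within each group. That sum ranged from 5617 to 8435 TPM in Taar5+ libraries and from 6289 to 20824 TPM in controls. The lowest is control 2, whose sum includes 115.2 TPM of Taar values identical to those of control 1. Of the 18 relations, 0 passed adjustment in Pearson's r or Spearman's rho (exact permutation tests), and 1 had an unadjusted p under 0.05. That relation was Xbp1 in controls, with r = 0.94 (exact permutation p = 0.0043, adjusted p = 0.0774) and rho = 0.78 (exact permutation p = 0.0172, adjusted p = 0.31), and without the 2 farthest libraries r was 0.36. Without control 2, 3 relations in controls had an unadjusted p under 0.05 and 0 passed adjustment. For Atf5 r was 0.17 in Taar5+ libraries (exact permutation p = 0.718, adjusted p = 0.939) and 0.04 in controls (exact permutation p = 0.936, adjusted p = 0.939), and rho was 0.14 (exact permutation p = 0.783, adjusted p = 0.88) and -0.53 (exact permutation p = 0.148, adjusted p = 0.531). Without the 2 farthest libraries r for Atf5 was -0.23 and -0.64.

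The wider pathway was described with lists of 75 genes, members included, of which 74 were tested. None of the 74 passed the adjusted threshold by limma (0 higher, 0 lower), 32 had a difference above 0 and 42 below, and their median log2 difference was -0.10, beside 0.02 over all genes. An unadjusted p under 0.05 was reached by 1 gene that was higher in Taar5+, Eif2ak3, and by 3 that were lower, against 7.05% of all genes. Among the 7 sensors and eIF2alpha kinases the median difference was -0.04. Ern1 had a log2 difference of -0.42 (95% confidence interval -1.45 to 0.61) and Atf6 of -0.04 (95% confidence interval -1.34 to 1.26), so the data do not place either apart from 0. Among the 14 genes of the eIF2alpha-ATF4 arm the median was 0.01, and among the 10 amino acid genes that ATF4 activates it was -0.08. Among 16 ER chaperones and folding enzymes the median was -0.18, with 12 below 0 and 4 above. Among the 11 tested genes of ER-associated degradation it was -0.16, among the 10 of the XBP1 arm and translocon -0.04, and among the 6 of the mitochondrial stress response -0.10.

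The 3 lower genes were Atf3, Hsp90b1 and Dnajb9. Atf3, a stress-induced factor of the eIF2alpha-ATF4 arm, stood at 1.72 to 33.7 TPM in 6 Taar5+ libraries and at 129 TPM in Taar5+ replicate 5. In controls it ranged from 18.1 TPM, in control 4, to 162 TPM, with a median of 85.6 TPM. The log2 difference was -2.23 (95% confidence interval -3.57 to -0.90, limma adjusted p = 0.24), and without Taar5+ replicate 5 it was -2.72 (limma adjusted p = 0.0301). Hsp90b1, the ER member of the HSP90 chaperones, had medians of 399 TPM in Taar5+ libraries and 574 TPM in controls. Its ranges of 295 to 582 and 387 to 805 TPM overlapped, with a log2 difference of -0.49 (95% confidence interval -0.87 to -0.11, limma adjusted p = 0.44). Dnajb9, a co-chaperone of BiP, had medians of 167 and 234 TPM (log2 difference -0.47, limma adjusted p = 0.64).

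**Figure D5:**
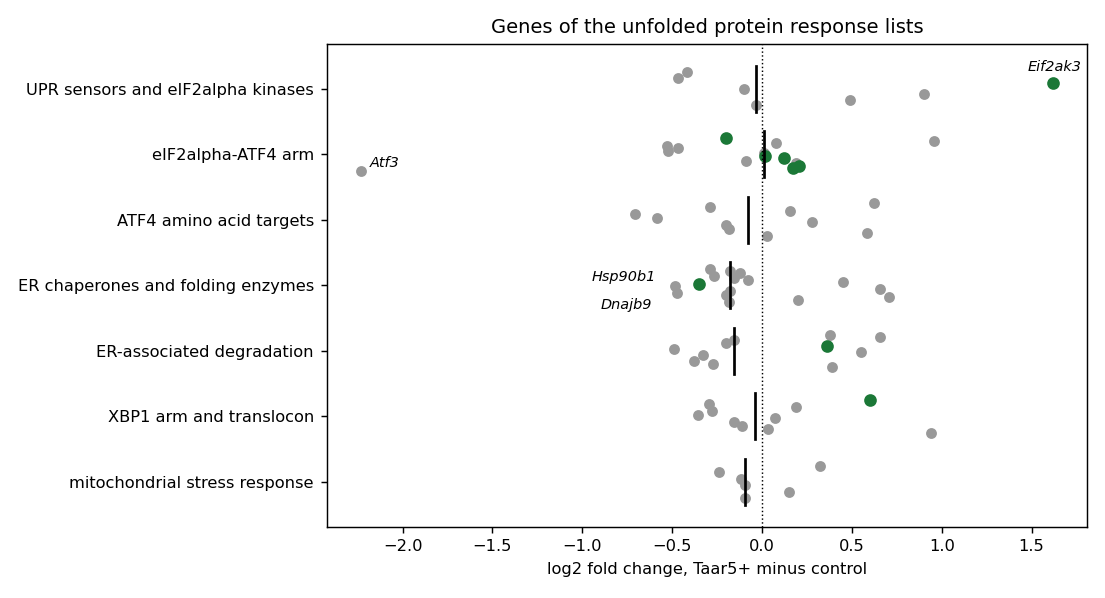
Difference in mean log2(TPM + 1), Taar5+ minus control, for the tested genes of 7 unfolded protein response lists; green points are the members, black bars are list medians, and genes with an unadjusted p under 0.05 are named. The list medians lie between -0.18 and 0.01, and Atf3 (-2.23) and Eif2ak3 (1.62) lie farthest from 0.

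Tissue dissociation is known to induce Atf3 together with other immediate-early genes. Of the 12 genes in a list of heat shock and dissociation genes, 0 passed the adjusted threshold by limma and 2 had an unadjusted p under 0.05, Dusp1 (log2 difference -0.81, limma adjusted p = 0.31) and Jun (-0.99, limma adjusted p = 0.57), and 9 were below 0. Fos and Fosb had differences of -0.67 and -0.98 (limma adjusted p of 0.80 and 0.93). Egr1, Ier2 and Junb had differences of 0.11, -0.08 and -0.21 (limma adjusted p of 0.97 to 0.99). The summed level of the list ranged from 2472 to 6299 TPM in Taar5+ libraries and from 3205 to 5856 TPM in controls. Dusp1 and Jun stood at 750 and 864 TPM in Taar5+ replicate 5, the highest value of each in either group. Control 4, the control with the least Atf3, also had the least Jun of the controls, 114 TPM. Its Dusp1, 436 TPM, lay inside the control range of 351 to 600 TPM. The part of dissociation in the values of Atf3 was not tested. Taar5+ replicate 5 also had the most OR transcripts (5525 TPM) and the fewest Taar transcripts (1517 TPM) of the Taar5+ libraries.

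Of the markers of other cells, 0 passed the adjusted threshold by limma. An unadjusted p under 0.05, with a lower level in Taar5+, was reached by 3 of 3 horizontal basal cell markers, 4 of 6 blood and immune markers and 1 of 2 tested microvillar cell markers, Ascl3 (log2 difference -2.81), against 7.05% of all genes in either direction. The 4 tested neuronal progenitor markers were below 0 with a median of -1.16, and none reached an unadjusted p under 0.05. The same held for the 2 tested ensheathing glia markers, with a median of -0.75. The summed horizontal basal cell markers ranged from 0 to 181 TPM (median 5.01) in Taar5+ libraries and from 0 to 123 TPM (median 98.0) in controls, with Trp63 listed at 0 at the Taar5+ median. The summed blood and immune markers ranged from 0.0777 to 924 TPM (median 249.2) and from 179 to 3236 TPM (median 881), with Ptprc listed at 0 at the Taar5+ median. The summed microvillar cell markers ranged from 0.266 to 175 TPM and from 12.6 to 608 TPM. Sustentacular cell markers ranged from 76.3 to 8444 and from 100 to 12025 TPM, and gland markers from 227 to 26017 and from 205 to 72971 TPM. Taar5+ replicate 5 held both Taar5+ maxima (next highest 1910 and 3544 TPM), and control 2 both control maxima (next highest 899 and 4595 TPM). Taar5+ replicate 5 also held the highest Taar5+ sums of basal, blood and immune, and microvillar markers (next highest 17.5, 824 and 38.7 TPM). The part of these cells in the levels of the members was not tested.

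The partners of the pathway in receptor feedback gave no difference past the test. Adcy3, the cyclase of the odour response, had medians of 1080 and 831 TPM (log2 difference 0.38, 95% confidence interval -0.53 to 1.29). Kdm1a, the demethylase LSD1, had medians of 18.7 and 30.8 TPM (log2 difference -0.23, 95% confidence interval -1.69 to 1.23). The receptor transporters Rtp1 and Rtp2 differed by 0.05 (95% confidence interval -0.42 to 0.52) and 0.11 (95% confidence interval -0.50 to 0.71). The limma adjusted p-values of these genes lay between 0.96 and 0.98.

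In the Taar6 line, with 1 library per group and so no test, the members differed little between Taar6+ and control. Of the 9 members, 0 differed by 2-fold or more, where 18.7% of the 15189 genes at 1 TPM or more in either library did, and their median absolute log2 difference was 0.14 against 0.36 over those genes. Eif2ak3 stood at 47.4 TPM in Taar6+ and 38.7 TPM in the control. Atf5 stood at 3747 and 4492 TPM, and Atf4 at 462 and 527 TPM. Chac1 had the largest difference of the members, 6.63 TPM in Taar6+ and 13.2 TPM in the control, a log2 difference of -0.89. Between the lines, both libraries of the Taar6 line lay above all 16 of the Taar5 line for Atf5 (at most 898 TPM there) and Eif2ak3 (at most 12.1 TPM), and both lay below all 16 for Herpud1 (357 and 371 TPM, against at least 466.2 TPM). The ratio of Atf5 to Atf4 was 8.11 and 8.52 in the Taar6 line and at most 2.25 in the Taar5 line. Line, reporter, age and the handling of these libraries cannot be told apart. In the same 2 libraries Gapdh, a glycolytic enzyme used by all cells, stood at 1.43 and 6.06 TPM, against 436 to 1222 TPM in the Taar5 line, so levels set across the lines may not be on one scale.

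Parts of 3 members are shared with other genes in the annotation (GENCODE M21, GRCm38). Of the words of 50 bases in their transcripts, 1.81% in Atf5 also occur in other genes, mainly Il4i1, 5.71% in Eif2ak3, mainly Gm43292, an annotated gene on the other strand, and 1.11% in Ddit3, mainly Mars. The other 6 members shared none.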

How the data were processed

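RNA of FACS-sorted MOE cells had been sequenced by the authors after Smart-seq2 amplification of cDNA, without molecular identifiers. The submitters' processing notes name Trimmomatic 0.36, HISAT2 2.1.0, Cufflinks 2.2.1 and DESeq2, and the builds mm10 and GRCm38. The deposited values are TPM, which are scaled to a sum of 1000000 per library and keep no depth, so no counting error can be given; the annotation, strand and multi-mapping settings are not given in the sources used here. The 488 rows that repeat a symbol were summed. The Taar values of control 2 equalled those of control 1 and put its sum 115.2 TPM too high; they were left out of the gene-wise fits but entered its receptor sum.

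The tested genes reached 1 TPM in 7 or more of the 16 Taar5-line libraries. The test was limma 3.58.1 (R 4.3.3, trended eBayes) on log2(TPM + 1), with p-values adjusted by Benjamini-Hochberg over all of these genes at 0.05. Differences of low genes come out too small on that scale. Single values had exact permutation tests, two-sided, and correlations used 100000 permutations within groups, or all orders within a group (Python 3.11.15, numpy 2.4.6, scipy 1.17.1). The limma fit was first tested on simulated data. Members and lists were chosen with earlier results of these data known. Named genes were the members, the 5 genes most like Atf5 and 4 feedback partners. Pathway genes were named if past the threshold, or else up to 4 per direction with an unadjusted p under 0.05. Ern1, Atf6, Dusp1, Jun, Fos, Fosb, Egr1, Ier2, Junb and the cell markers given by name fall outside this rule. They were named after their values were seen. The alternatives changed the pseudocount, the filter and the normalization (quantile, or rescaled without receptor genes), dropped the trend, added array weights or a replicate block, used 10 controls, or left out each library. Promoter motifs were searched in RefSeq windows, and positions are from GENCODE M21.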

Additional observations from a re-analysis of the deposited data

Results flagged for a closer look

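Of the members, 3 values of members lay apart from the rest of their group, as the gap to the nearest other library divided by the range on the log2(TPM + 1) scale exceeded the 95% critical value of Dixon's test. Of 18 groups of values checked, about 0.9 would be flagged by chance. In control 2 Ddit3 stood at 123 TPM and Xbp1 at 6.53 TPM, each the lowest of the 9 controls; this library also had 639 abundant genes listed at 0, and the part of its low detection in these values was not tested. Chac1 was listed at 0 TPM in Taar5+ replicate 4, the library with the fewest symbols above 0 of its group.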

How the results depend on the processing

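Over 252 refits of the 9 member differences, 227 kept their direction, 25 turned and 0 passed the adjusted threshold; 27 of these change the filter or the trend only and leave the difference as it is. Eif2ak3, Herpud1, Hspa5 and Trib3 kept their direction throughout, Eif2ak3 between 0.53 and 2.67. With the Taar6-line control added (10 controls), Atf5 was -0.18. With array weights Atf4, Ddit3, Xbp1 and Chac1 were -0.064, -0.39, -0.16 and -0.21. With a replicate block Ddit3 was -0.042 and Chac1 -0.17. Leaving out single libraries, Atf4 ranged from -0.017 to 0.27, Ddit3 from -0.17 to 0.12 and Chac1 from -0.31 to 0.72.

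The pathway count was 6 of 74 with array weights, where 1410 of all 12502 genes passed. It was 1 of 72 without Taar5+ replicate 5 (0 to 1 over libraries left out), where 66 of all 11968 genes passed. In the other planned settings it was 0. The count over all genes, 21, became 109 with quantile normalization (35 higher and 74 lower, against 18 and 3), 11 rescaled without receptor genes, 12 with a replicate block and 1410 with array weights (197 higher and 1213 lower). It was 16 to 148 over libraries left out, 148 without control 2 (1.19% of genes) and 66 without Taar5+ replicate 5. Array weights moved the median of all genes to -0.16 and leaving out control 2 to -0.17; the cause was not tested.

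The following settings were added after seeing the data. Leaving out control 2 and Taar5+ replicate 5 gave 337 of 11915 genes and 2 of 72 pathway genes (Atf3 and Hsp90b1). Ddit3 was then at -0.11 and Chac1 at -0.39. Array weights without control 2 gave 1414 of 12460 genes and 6 of 73 pathway genes. Atf4, Ddit3, Xbp1 and Chac1 were then at -0.067, -0.40, -0.17 and -0.23. A replicate block without control 2 gave 52 genes, with Ddit3 at -0.41 and Chac1 at -0.95. Leaving out each library, r of Atf5 with Hspa5 stayed between -0.94 and -0.89, and the log2 difference of the Herpud1 to Hspa5 ratio between 0.64 and 0.83 (exact permutation p at most 0.0108).

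Replicate numbers are shared between groups, and the labels do not say whether a number marks a shared preparation. Same-numbered libraries correlated between -0.01 and 0.28, not all above 0.1. For 3 of the 7 Taar5+ libraries the closest control had the same number. Atf5 in Taar5+ and control replicates 1 to 7 stood at 816/898, 368/214, 337/285, 207/193, 203/201, 365/196 and 553/402 TPM. Hspa5 stood at 353/404, 468/887, 552/578, 818/1127, 812/899, 532/730 and 445/640 TPM, lower in Taar5+ at every shared number. With the replicate block, 2 members had an unadjusted p under 0.05 by limma, as did 1116 of 12502 genes. Without the block, 1 member and 881 genes did. With the block 0 members passed adjustment. Whether the numbers mark pairs was not tested. The replicate block compares same-numbered libraries, as a paired analysis would, although the labels do not show that the numbers mark pairs. The other tests took the libraries as unpaired.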
